A study of Homo sapiens with 8 samples.

Results

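The transcriptome of cells selected in palbociclib was compared with that of cells passaged in DMSO vehicle, by single-cell RNA sequencing. The cells were SUM159, an established line from a human breast cancer of the triple-negative class, which lacks both hormone receptors and HER2 amplification. Members were all cells that the deposited cell annotation assigned to the palbociclib library or to the DMSO library. This gave 693 palbociclib-selected cells and 459 DMSO cells, together 1152 of the 5738 cells of the series, with UMI counts (unique molecular identifiers, each marking 1 captured RNA molecule) for 18955 genes. All cells carried the ClonTracer lentiviral barcode library, which tags lineages. The palbociclib group had been grown in 160 nM palbociclib and the DMSO group in vehicle only, for up to 18 passages. Replicate cultures of a treatment were mixed in equal cell numbers before encapsulation, so each side was 1 library, and neither cultures nor lineages were told apart here. The DMSO library belonged to the experiment on JQ1 with paclitaxel and the palbociclib library to the experiment on JQ1 with palbociclib. Drug and experiment therefore cannot be told apart in this comparison, and no test between the 2 libraries was possible. For some genes, levels in all 8 libraries of the series are given. JQ1, an inhibitor of BET bromodomain proteins, was at 100 nM and paclitaxel, a microtubule inhibitor, at 0.6 nM. JQ1-A (JQ1 alone), paclitaxel and JQ1+paclitaxel belonged to the experiment of the DMSO library. JQ1-B (JQ1 alone) and JQ1+palbociclib belonged to that of the palbociclib library. Pre-treatment cells had no drug. Intervals given below are exact 95% intervals that cover counting error only.

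Palbociclib is an inhibitor of the cyclin-dependent kinases CDK4 and CDK6. With a D-type cyclin, these kinases phosphorylate the retinoblastoma protein RB in G1, which frees E2F transcription factors to switch on genes of DNA replication and later of mitosis. When the kinases are blocked, RB-positive cells hold in G1 and E2F target genes stay repressed. SUM159 is a mesenchymal-like line, and its cells secrete matrix proteins and cytokines.

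The median cell had 22495 UMIs and 3935 detected genes in the palbociclib library and 20664 UMIs and 4014 genes in the DMSO library. Mitochondrially encoded RNA made up a median of 5.58% of the UMIs of a palbociclib-selected cell and 3.81% of those of a DMSO cell, and cytosolic ribosomal protein RNA 33.0% and 29.3%. No cell barcode was shared by the 2 libraries. Markers of the line were at similar levels in both libraries. Vimentin (VIM) was at 3378 CPM, the UMIs of a gene per 1e+06 UMIs of the library, in the palbociclib library and 4080 CPM in the DMSO library, LGALS1 at 4455 and 4509 CPM and CD44 at 333 and 293 CPM. The oestrogen and progesterone receptor genes ESR1 and PGR had no UMI in either library, and the leukocyte marker PTPRC was at 0 CPM under palbociclib and 0.471 CPM under DMSO.

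SAA2, SLPI, SAA1 and C3 stood highest above DMSO and PTN, SFN, MTERFD1 and TUBB4B lowest, among genes that reached 20 CPM in either library. Of the gene lists, tubulin and DNA replication genes had the lowest medians. A gene was called past 2-fold where the ratio of its CPM reached 2 in either direction and the higher library had at least 20 CPM. A gene that reached 20 CPM in 1 library only entered through the side where it was high, and its call is a description. Of 4888 genes at that level, 68 (1.39%) were at least 2-fold higher in the palbociclib library and 140 (2.86%) at least 2-fold lower. A gene's CPM is a share of the library, and fewer cells expressing a gene and less of its RNA per cell cannot be told apart in such a sum. The median over all 4888 genes was a log2 ratio of -0.25, and -0.07 when mitochondrial and ribosomal protein genes were left out of the totals, and 28.9% of genes had a ratio above 1. Every list below is to be read against that median. The balance of the calls moved with the scaling. Higher genes were 32.7% of the calls with CPM, 55.3% with trimmed-mean (TMM) scaling, 45.8% with median-of-ratios scaling and 66.8% when mitochondrial and ribosomal protein genes were left out of the totals.

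**Figure D1:**
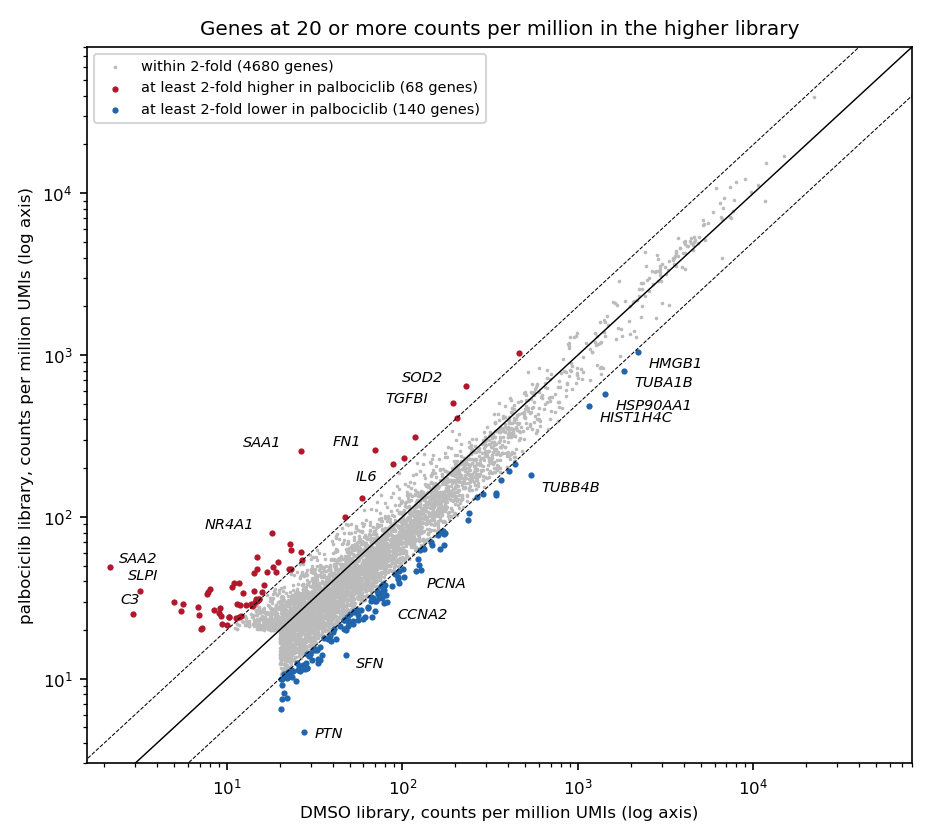
Level of each gene in the DMSO library (horizontal, CPM, log axis) and in the palbociclib library (vertical, CPM, log axis), for the 4888 genes that reached 20 CPM in either. The solid line marks equal levels and the dashed lines a 2-fold difference. The 68 red genes reach up to 22.6-fold (SAA2) and the 140 blue genes down to a ratio of 0.171 (PTN).

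The targets of the drug themselves differed little. CDK4 was at 139 CPM in the palbociclib library and 184 CPM in the DMSO library, a ratio of 0.754 (0.709 to 0.801), and CDK6 at 25.1 and 16.8 CPM, a ratio of 1.50 (1.25 to 1.79). Of the D-type cyclins that activate them, CCND1 was at 236 and 181 CPM (ratio 1.31, 1.24 to 1.38) and CCND3 at 106 and 112 CPM (0.947, 0.879 to 1.02). CCND2 had 27 UMIs under palbociclib, a level of only 1.63 CPM, and 0 UMIs under DMSO, which allows up to 0.282 CPM. It was also present in the JQ1+palbociclib library (1.57 CPM) and had no UMI in the JQ1-B library of JQ1 alone from the same experiment.

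RB1 was at 10.1 CPM under palbociclib and 8.38 CPM under DMSO, with a ratio whose interval held 1 (1.20, 0.925 to 1.58), so a difference was not detectable at this depth. Its relative RBL2, which represses cell cycle genes in quiescent cells, was at 16.1 and 11.7 CPM and was highest of all 8 libraries under palbociclib. E2F1, an activating E2F that is its own target, was at 17.5 and 23.2 CPM (0.754, 0.634 to 0.897). The E2F partners went apart, with TFDP1 at 149 and 262 CPM (0.568) and TFDP2 at 29.4 and 18.1 CPM (1.62). Downstream, CCNE1, which activates CDK2, had a ratio of 1.21 with an interval holding 1 (0.896 to 1.64), and CCNE2 a ratio of 0.460 at 2.60 against 5.65 CPM. SKP2 and CKS1B, which target the inhibitor p27 for destruction, were at 0.509 and 0.527 of their DMSO level. Of the 11 members of this axis at 20 CPM or more, CCNA2 alone passed 2-fold, downwards, beside 2.86% of all genes, and the median log2 ratio was -0.41.

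CDK inhibitor genes did not pass 2-fold in either direction among the 4 at 20 CPM or more. CDKN1A (p21) was at 32.3 CPM under palbociclib and 31.3 CPM under DMSO, a ratio of 1.03 (0.898 to 1.19). CDKN2C (p18) was at 0.855 and CDKN2D (p19) at 0.692 of the DMSO level, and CDKN3, a phosphatase that is itself periodic in the cell cycle, at 0.501. CDKN1B (p27) was at 5.62 and 4.33 CPM, with an interval holding 1 (0.902 to 1.89). CDKN2A (p16), whose product blocks the same kinases as the drug, had 15 UMIs against 1, a ratio of 9.62 (1.48 to 405) at 0.906 and 0.0942 CPM. It was higher in JQ1-B (3.05 CPM), JQ1+palbociclib (2.52 CPM) and JQ1-A (1.61 CPM).

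Genes of DNA replication, most of them E2F targets, were lower as a group. Of the 34 listed replication genes at 20 CPM or more (50 listed), 12 were at least 2-fold lower and 0 at least 2-fold higher, beside 2.86% and 1.39% of all genes, and 33 of 34 had a ratio under 1. Their median log2 ratio was -0.83. PCNA, the sliding clamp of DNA polymerase, was at 46.0 CPM under palbociclib and 120 CPM under DMSO, a ratio of 0.383 (0.350 to 0.419), and was lowest of all 8 libraries there. CDC6, which loads the replicative helicase, was at 14.1 and 35.0 CPM (0.402, 0.340 to 0.475), also the lowest of the 8. JQ1-A, without palbociclib, lay close, with CDC6 at 14.7 CPM and PCNA at 51.7 CPM. All listed replication genes together summed to 1627 CPM under palbociclib and 2625 CPM under DMSO. The sums were 1695 CPM in JQ1-A, 1795 CPM in JQ1+paclitaxel and 1898 CPM in JQ1-B, so lower levels were not particular to palbociclib. GMNN (geminin), which keeps origins from firing again, was at 29.2 and 78.5 CPM (0.372, 0.332 to 0.416). FEN1 and GINS2, of Okazaki fragment processing and of the helicase, stood at ratios of 0.425 and 0.437. Not every replication gene was lower, as CDT1 (0.932, 0.818 to 1.06) and RPA3 (259 and 248 CPM) had ratios whose intervals held 1.

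The letters that E2F reads were searched for in promoters. In the RefSeq promoter table (250 bases before to 50 after each start site), an E2F match was TTTCCCGC or TTTGGCGC on either strand. A match of the cell cycle homology region (CHR), which mitotic genes carry, was TTTGAA on either strand. Of the listed replication genes with a promoter, 20 of 42 (47.6%) held an E2F match, and of the listed mitotic genes 31 of 44 (70.5%) held a CHR match. Promoters were given for 114 of the 140 lower genes, of which 13 (11.4%) held an E2F match and 25 (21.9%) a CHR match. Among all 27305 genes of the table the shares were 2.75% and 18.2%, and among the genes at 20 CPM or more 5.17% and 13.7%. Of the 44 higher genes with a promoter, 2 (4.55%) held an E2F match and 6 (13.6%) a CHR match, and 10 (22.7%) held an NF-kB consensus, against 10 (8.77%) of the lower genes and 17.0% of the genes at 20 CPM or more. SAA1, SAA2 and C3 had no entry in the table and are outside these shares. Both an E2F and a CHR match in 1 promoter occurred in 2 of the lower genes (1.75%) and in 0.311% of all genes. A match is a description of the letters and not of a bound site. The promoters of 6 called genes are shown as examples, chosen because they hold a match. The S phase genes PCNA, CDC6 and GINS2 have the E2F match in capitals. The mitotic genes CDK1 and CDC20 have the CHR match in capitals, and IL6 has the NF-kB match in capitals. Other called genes, among them AURKB, CCNA2 and FEN1, held no E2F or CHR match. Sequences read 5' to 3' on the gene's strand, and their places are on GRCh37, where each had a single exact match on its chromosome.
PCNA, chr20:5107219-5107518, minus strand: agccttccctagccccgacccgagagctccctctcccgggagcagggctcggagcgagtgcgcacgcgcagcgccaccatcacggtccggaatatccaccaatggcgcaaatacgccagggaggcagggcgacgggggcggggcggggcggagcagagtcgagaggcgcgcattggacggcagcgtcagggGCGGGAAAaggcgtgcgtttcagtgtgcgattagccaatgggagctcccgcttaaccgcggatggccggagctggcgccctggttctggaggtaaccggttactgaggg
CDC6, chr17:38443881-38444180, plus strand: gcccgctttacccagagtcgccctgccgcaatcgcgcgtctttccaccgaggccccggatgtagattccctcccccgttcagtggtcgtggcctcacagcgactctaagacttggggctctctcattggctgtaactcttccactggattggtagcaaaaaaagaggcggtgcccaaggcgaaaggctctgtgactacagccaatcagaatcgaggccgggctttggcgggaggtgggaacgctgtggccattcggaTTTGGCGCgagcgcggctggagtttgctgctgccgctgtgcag
GINS2, chr16:85722511-85722810, minus strand: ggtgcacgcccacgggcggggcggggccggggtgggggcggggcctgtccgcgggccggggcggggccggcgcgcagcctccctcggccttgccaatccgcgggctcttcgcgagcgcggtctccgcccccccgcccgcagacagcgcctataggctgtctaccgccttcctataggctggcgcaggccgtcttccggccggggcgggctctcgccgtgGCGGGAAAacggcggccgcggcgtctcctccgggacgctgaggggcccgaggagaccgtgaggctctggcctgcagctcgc
CDK1, chr10:62537839-62538138, plus strand: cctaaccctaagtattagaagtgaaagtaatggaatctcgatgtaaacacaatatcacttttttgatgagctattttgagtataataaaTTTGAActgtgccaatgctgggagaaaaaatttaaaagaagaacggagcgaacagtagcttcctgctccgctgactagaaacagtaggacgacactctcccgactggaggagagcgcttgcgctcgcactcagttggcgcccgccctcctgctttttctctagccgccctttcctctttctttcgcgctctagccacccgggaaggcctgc
CDC20, chr1:43824402-43824701, plus strand: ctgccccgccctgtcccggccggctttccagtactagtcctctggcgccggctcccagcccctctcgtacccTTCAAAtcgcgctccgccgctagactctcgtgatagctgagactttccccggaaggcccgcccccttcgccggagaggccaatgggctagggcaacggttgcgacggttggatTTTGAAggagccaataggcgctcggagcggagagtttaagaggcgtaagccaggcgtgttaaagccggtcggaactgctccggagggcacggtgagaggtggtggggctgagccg
IL6, chr7:22766569-22766868, plus strand: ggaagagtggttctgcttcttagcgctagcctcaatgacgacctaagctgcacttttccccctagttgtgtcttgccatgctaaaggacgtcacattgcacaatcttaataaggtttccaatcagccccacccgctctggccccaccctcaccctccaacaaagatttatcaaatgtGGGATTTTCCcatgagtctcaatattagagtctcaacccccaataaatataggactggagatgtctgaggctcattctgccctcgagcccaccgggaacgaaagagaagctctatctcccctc

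Mitotic genes followed the replication genes. Of 45 listed G2/M genes at 20 CPM or more, 10 were at least 2-fold lower and 0 at least 2-fold higher, beside 2.86% and 1.39% of all genes, and the median log2 ratio was -0.69. AURKB, the kinase of the chromosomal passenger complex, was at 24.2 CPM under palbociclib and 66.8 CPM under DMSO, a ratio of 0.362 (0.319 to 0.410). CCNA2, the cyclin of S phase and early mitosis, was at 29.8 and 81.7 CPM (0.364, 0.326 to 0.407), and CDK1, the mitotic kinase, at 39.3 and 95.8 CPM (0.410, 0.371 to 0.453). CDC20, an activator of the anaphase-promoting complex, stood at a ratio of 0.456, and UBE2T, a ubiquitin-conjugating enzyme of DNA repair outside the list, at 0.366. HMMR and ECT2 were level (0.979 and 1.04, both intervals holding 1), and CDC25B was slightly higher (1.13, 1.06 to 1.22). All listed mitotic genes together summed to 3247 CPM under palbociclib and 5220 CPM under DMSO. JQ1 libraries without palbociclib were also low, at 3531 CPM in JQ1-A, 3500 CPM in JQ1+paclitaxel and 3403 CPM in JQ1-B.

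Chromatin proteins made in proliferating cells and tubulins were lower too. Of the 25 chromatin genes at 20 CPM or more, 3 were at least 2-fold lower, beside 2.86% of all genes: LMNB1 (lamin B1, 11.4 and 27.9 CPM), the histone gene HIST1H4C (486 and 1163 CPM) and HMGB1 (1047 and 2195 CPM), and the list had a median log2 ratio of -0.75. Of the 9 tubulin genes at that level, 4 were at least 2-fold lower, beside 2.86% of all genes, and all 9 had ratios under 1, where 28.9% of all genes had ratios above 1. Their median log2 ratio was -0.96. DMSO itself stood above pre-treatment for this list, with a median log2 ratio of 0.33, beside 0.02 over all genes. The gap was therefore smaller against pre-treatment. TUBA1A was at 114 CPM under palbociclib, 212 CPM under DMSO and 80.1 CPM before treatment. TUBB2A and TUBB stood at 0.771 and 0.764 of pre-treatment, and TUBB4B and TUBA1B at 0.459 and 0.491. TUBB4B, a beta-tubulin, was at 182 CPM under palbociclib and 542 CPM under DMSO, a ratio of 0.335 (0.321 to 0.350), and was lowest of the 8 libraries. The alpha-tubulin TUBA1B was at 800 and 1829 CPM (0.437). Reads of tubulin and histone genes can be split between near-identical copies, so single members are less certain than their lists.

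**Figure D2:**
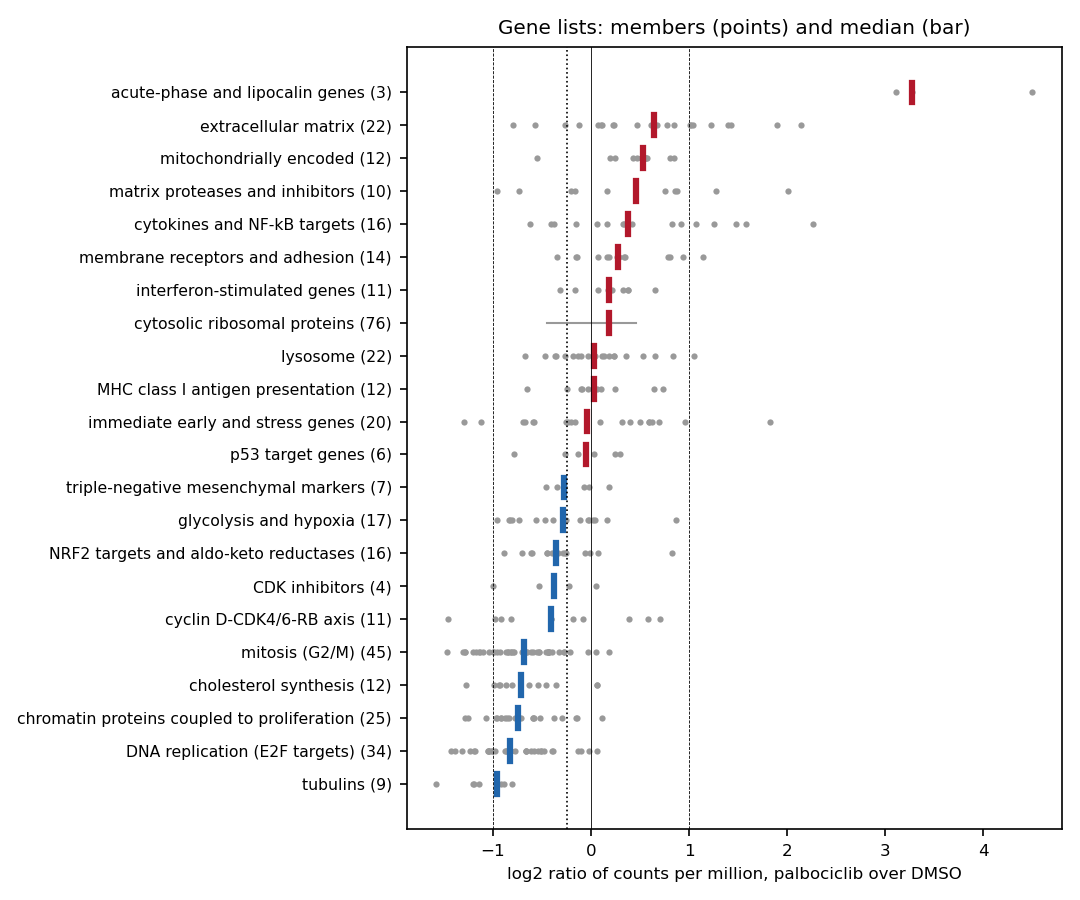
log2 ratio of CPM, palbociclib over DMSO, for the members of each gene list at 20 CPM or more (points, number in brackets) with the list median (bar). The dotted line is the median of all 4888 genes (-0.25), the dashed lines mark 2-fold, and the grey line of the 76 ribosomal protein genes is their range. Tubulin, replication, chromatin, cholesterol and mitotic medians lie below -0.6, and the matrix median is 0.64. The 3 acute-phase genes are shown as a description.

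Phase calls from the S and G2/M gene scores of Seurat, on cells thinned to 10000 UMIs, gave 411 of 662 palbociclib-selected cells as G1 (62.1%, 58.3 to 65.8%) and 107 of 445 DMSO cells (24.0%, 20.1 to 28.3%). S calls were 15.7% and 41.1% of cells, and G2/M calls 22.2% and 34.8%. The pre-treatment library, a second library without drug, had 25.4% G1 calls, near DMSO. A call is a comparison of list scores and not a measure of DNA content, free RNA enters it, and 28.5% of palbociclib-selected and 30.3% of DMSO cells lay within 0.05 of a boundary. The order of the 2 libraries was the same in each way of scoring, but the size of the gap was not. Scored within each library alone, the G1 share was 47.4% under palbociclib and 31.0% under DMSO.

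**Figure D3:**
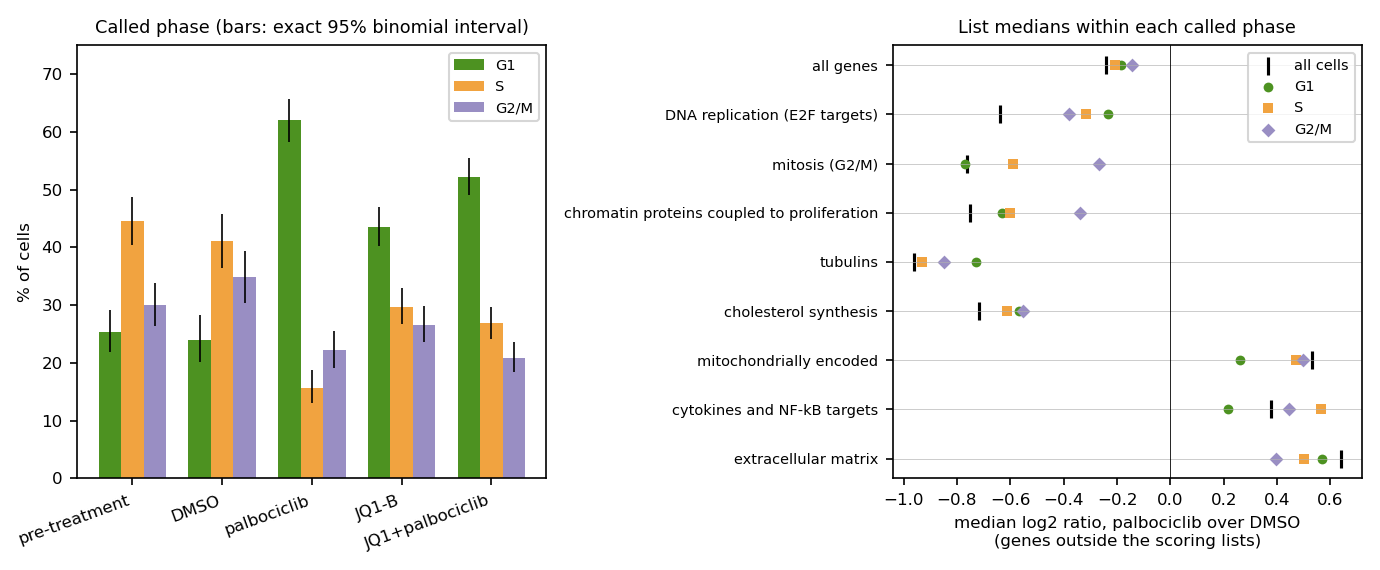
Left, share of cells (%) called G1, S and G2/M in 5 libraries, with exact 95% binomial intervals as error bars. Right, median log2 ratio of CPM, palbociclib over DMSO, of list members outside the scoring lists, over all cells (vertical tick) and within the cells of each called phase (coloured points). G1 calls are 62.1% under palbociclib and 24.0% under DMSO, and the tubulin median stays below -0.7 in every phase.

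Cells of the same called phase were also set side by side. Over genes that the scores did not use, the replication list had a median log2 ratio of -0.64 over all cells, -0.23 in G1, -0.32 in S and -0.38 in G2/M cells, beside -0.24, -0.18, -0.21 and -0.14 for all genes. The mitotic list had -0.76 over all cells, -0.77 in G1, -0.59 in S and -0.27 in G2/M cells, so its gap was as large among G1 cells as over all cells. Tubulin genes outside the scoring lists kept medians of -0.73, -0.93 and -0.85 in the 3 phases. CCNA2, which is in neither scoring list, was at 5.31 CPM in G1 cells of the palbociclib library and 22.3 CPM in G1 cells of the DMSO library, at 26.9 and 51.9 CPM in S cells and at 85.5 and 142 CPM in G2/M cells. With both libraries set to equal shares of the 3 phases, 45 genes were at least 2-fold higher and 32 at least 2-fold lower. All 45 and 31 of the 32 were among the 68 and 140. Most of the lower genes thus fell short of 2-fold at equal phase shares.

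Among genes at 20 CPM or more, the 4 highest ratios belonged to secreted proteins, 3 of them of the acute-phase list. Of the 15 genes listed for it, 3 reached 20 CPM. SAA2 and C3 did so through the palbociclib library, where they were high, so that their passing 2-fold was set by that level and is given as a description. SAA1, serum amyloid A1, was at 257 CPM under palbociclib, 26.5 CPM under DMSO and 65.5 CPM before treatment. Its ratio to DMSO was 9.70 (8.59 to 11.0) and to pre-treatment 3.92, so the size of the difference depended on which library without drug was the reference. SAA2, its neighbour on chromosome 11 (GRCh37, 18260770 to 18270215, minus strand, with SAA1 at 18287807 to 18291524, plus strand), was at 48.9, 2.17 and 9.79 CPM in the same order. The 2 genes are near-identical, and the split of reads between them is uncertain. Complement C3 was at 25.1, 2.92 and 7.80 CPM. SLPI, a secreted inhibitor of leukocyte proteases, was at 34.9, 3.20 and 7.73 CPM. All 4 genes were highest in the palbociclib library of all 8. With JQ1, an inhibitor of BET bromodomain proteins, SAA1 was uneven. JQ1-A had 2.90 CPM, JQ1-B 3.74 CPM and JQ1+palbociclib 5.94 CPM, but JQ1+paclitaxel had 59.8 CPM, near pre-treatment.

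SAA1 was unevenly spread over the cells. After thinning, 311 of 662 palbociclib-selected cells (47.0%, 43.1 to 50.9%) had an SAA1 UMI, against 34 of 445 DMSO cells (7.64%, 5.35 to 10.5%), and the top 10% of cells held 68.9% of the SAA1 UMIs under palbociclib. No other cell type was in the data from which a background of free RNA could be read. In the 311 cells with SAA1, SLPI had a mean of 0.579 UMIs per cell, C3 0.367 and SOD2 8.44. In the 351 cells without it the means were 0.111, 0.165 and 4.78. ICAM1 (0.260 and 0.251) and IL6 (2.25 and 2.22) were level between those cells, and FN1 was lower in the cells with SAA1 (2.50 and 3.14). The genes that stood above DMSO were thus not all carried by the same cells. By phase, SAA1 was at 324 CPM in G1 cells of the palbociclib library and 82.6 CPM in those of DMSO, and at 226 and 13.4 CPM in S cells.

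Cytokine and NF-kB target genes were mixed. Of 16 at 20 CPM or more, 5 were at least 2-fold higher and 0 at least 2-fold lower, beside 1.39% and 2.86% of all genes, and the median log2 ratio was 0.38. LIF, a cytokine of the IL6 family, was at 26.2 CPM under palbociclib, 5.46 CPM under DMSO and 4.33 CPM before treatment, a ratio to DMSO of 4.80 (3.64 to 6.43). IL6 itself was at 211, 88.5 and 90.5 CPM (2.38, 2.22 to 2.56), and SOD2, the mitochondrial superoxide dismutase, at 645, 231 and 317 CPM (2.79, 2.67 to 2.92). ICAM1, an adhesion receptor for leukocytes, was at 27.2, 9.13 and 12.1 CPM, and CSF1, a macrophage growth factor, at 47.8, 22.7 and 18.1 CPM. LIF and ICAM1 reached 20 CPM through the palbociclib library only. Their passing 2-fold was set by that level and is given as a description. Other targets of the same factor stood below DMSO. NFKBIA, the inhibitor that NF-kB induces against itself, was at 217 and 334 CPM (0.649, 0.620 to 0.680), IL8 at 669 and 867 CPM (0.771) and CCL20 at 39.7 and 52.6 CPM (0.754). Relative to the all-gene median their log2 ratios were -0.38, -0.13 and -0.16, so IL8 and CCL20 lay near it. Of the 16 genes, 13 stood above that median. Interferon-stimulated genes (11 at 20 CPM or more, median log2 ratio 0.19) and genes of MHC class I presentation (12, median 0.03) had 0 members past 2-fold.

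Extracellular matrix genes were higher as a group. Of 22 at 20 CPM or more, 8 were at least 2-fold higher and 0 at least 2-fold lower, beside 1.39% and 2.86% of all genes, and the median log2 ratio was 0.64. All listed matrix genes together summed to 2335 CPM under palbociclib and 1690 CPM under DMSO. JQ1 libraries without palbociclib were also above DMSO, at 2115 CPM in JQ1-A, 2101 CPM in JQ1+paclitaxel and 1878 CPM in JQ1-B. FN1, fibronectin, was at 260 CPM under palbociclib, 69.6 CPM under DMSO and 56.1 CPM before treatment, a ratio to DMSO of 3.73 (3.45 to 4.04). It was at 247 CPM in JQ1-A, 198 CPM in JQ1+paclitaxel and 146 CPM in JQ1-B. An FN1 UMI was found in 80.2% of thinned palbociclib-selected cells (77.0 to 83.2%) and 44.3% of DMSO cells (39.6 to 49.0%). The collagen VI chains COL6A2 and COL6A1 were at 52.8 and 19.6 CPM and at 47.8 and 23.3 CPM. TGFBI, a secreted adaptor of collagen, was at 508 and 193 CPM, and the laminin chains LAMA5 and LAMB1 stood at ratios of 2.33 and 2.01. DCN, the proteoglycan decorin, was at 34.4 CPM against 7.81 CPM under DMSO (4.40, 3.49 to 5.61), but pre-treatment cells had 26.2 CPM, a ratio of 1.31. DCN and COL6A2 were under 20 CPM in the DMSO library. They entered the count through the palbociclib library and are given as a description. Members below DMSO included COL1A1 (0.674) and CYR61 (0.831). Relative to the all-gene median their log2 ratios were -0.32 and -0.02, so CYR61 lay at that median.

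Enzymes that process the matrix also differed. HTRA1, a secreted serine protease, was at 27.7 CPM under palbociclib and 6.87 CPM under DMSO (4.03, 3.15 to 5.24), and ADAM12 at 28.7 and 11.9 CPM (2.42). HTRA1 was also at 29.2 CPM in JQ1-A, 25.2 CPM in JQ1+paclitaxel and 17.1 CPM in JQ1-B, without palbociclib. TIMP1, an abundant inhibitor of metalloproteases, was at 3992 and 6640 CPM (0.601), but pre-treatment cells had 3060 CPM. FAM20C, a kinase of secreted proteins, was at 30.0 and 4.99 CPM (6.00, 4.52 to 8.13) and PDPN, the membrane glycoprotein podoplanin, at 28.8 and 5.65 CPM (5.10, 3.89 to 6.79). MMP14, a membrane-bound protease chosen after its values were seen, lay under the 20 CPM level, with 120 UMIs under palbociclib and 5 under DMSO (ratio 15.4, 6.42 to 48.3).

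**Figure D4:**
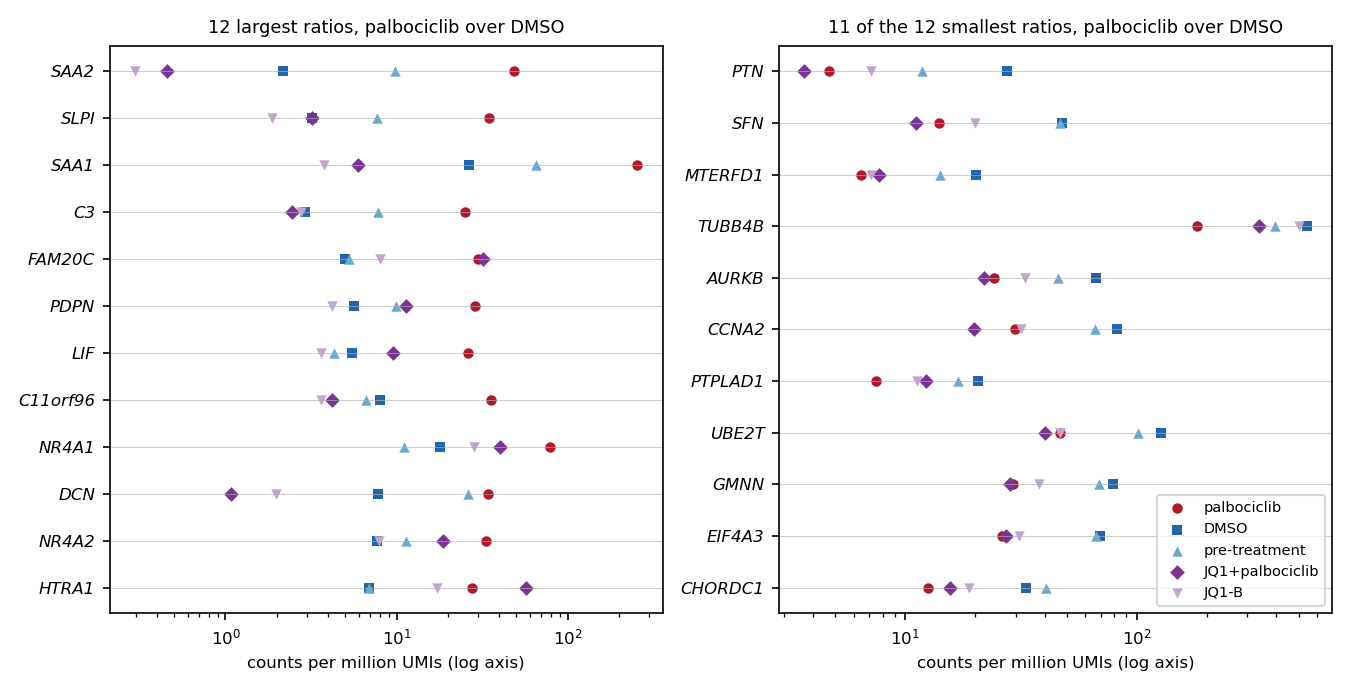
Level (CPM, log axis) of the 12 genes with the largest (left) and 11 of the 12 with the smallest (right) ratio of palbociclib to DMSO, in 5 libraries, 1 point each. Red circles are palbociclib and blue squares DMSO. Pre-treatment lies near palbociclib for DCN (26.2 and 34.4 CPM), and SAA1 and SAA2 lie lowest in JQ1-B and JQ1+palbociclib.

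Among signalling genes, the orphan nuclear receptors NR4A1 and NR4A2, which are immediate early genes, were at 79.1 and 18.0 CPM (4.40, 3.78 to 5.15) and at 33.3 and 7.72 CPM (4.32, 3.42 to 5.52). NR4A1 had a UMI in 46.8% of thinned palbociclib-selected cells (43.0 to 50.7%) and 14.4% of DMSO cells (11.3 to 18.0%). The transcription factor EGR3 was at 24.7 and 6.97 CPM (3.55), and at 1.21 CPM before treatment. C11orf96 was at 35.8 CPM under palbociclib, 4.48 times its DMSO level. Of the immediate early and stress list, 1 of 20 genes was at least 2-fold higher and 2 at least 2-fold lower, beside 1.39% and 2.86% of all genes. Its median log2 ratio was -0.04, above the all-gene median of -0.25, with 13 of the 20 above that median. The sign of the list median turned with TMM and median-of-ratios scaling (0.07 and 0.02). The 2 lower genes were the chaperones HSP90AA1 (577 and 1421 CPM, 0.406) and HSPH1 (30.3 and 66.1 CPM, 0.458). CHORDC1, an HSP90 partner (0.378), and HSPA5, the chaperone of the endoplasmic reticulum (0.387), were lower as well. MXD4, an antagonist of MYC singled out after its values were seen, stood at a ratio of 2.63. MYC was at 503 and 356 CPM (1.41, 1.36 to 1.47).

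Among genes at 20 CPM or more, the lowest ratio belonged to PTN, the secreted growth factor pleiotrophin (chromosome 7, GRCh37, 136912088 to 137028520, minus strand). It was at 4.71 CPM under palbociclib and 27.6 CPM under DMSO, a ratio of 0.171 (0.131 to 0.220). Pre-treatment cells had 11.8 CPM, so that the ratio to them was 0.400. SFN, the 14-3-3 sigma protein of epithelial cells, was at 47.7 CPM in DMSO and 46.7 CPM in pre-treatment cells, with no such gap between the 2 libraries without drug, and the palbociclib library stood at 0.294 of DMSO. A UMI of PTN was found in 4.23% of palbociclib-selected and 21.6% of DMSO cells, and a UMI of SFN in 10.4% and 34.4%. EIF4A3, of the exon junction complex (0.375), MTERFD1, of mitochondrial transcription control (0.319), and PTPLAD1 (0.365) were also among the 12 lowest genes.

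Mitochondrially encoded transcripts were higher in 11 of 12 genes at 20 CPM or more, with 0 past 2-fold and a median log2 ratio of 0.53. MT-CO1, a subunit of cytochrome oxidase, was at 10891 CPM under palbociclib and 7319 CPM under DMSO, and MT-CYB at 4345 and 2418 CPM. Genes of cholesterol synthesis had a median log2 ratio of -0.72 over 12 genes. Of these, EBP, a sterol isomerase, was past 2-fold downwards (141 and 339 CPM), beside 2.86% of all genes. Targets of the antioxidant factor NRF2 (16 genes, median -0.36) and genes of glycolysis (17, -0.29) were near the all-gene median with 0 past 2-fold, although FTH1, ferritin heavy chain, was at 39012 and 22097 CPM (1.77). Lysosomal genes (22, median 0.03) had 1 member past 2-fold upwards, membrane receptors (14, 0.27) had F2R, and p53 targets (6, -0.05) had 0, beside 1.39% of all genes.

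DMSO and pre-treatment cells, both without drug, had 11 of 4794 genes (0.229%) at least 2-fold higher in DMSO and 17 (0.355%) at least 2-fold lower. Palbociclib was at least 2-fold above both of them for 50 genes (1.02%) and at least 2-fold below both for 79 (1.62%). Those 50 included SAA1, SAA2, C3, SLPI, FN1, IL6 and NR4A1, and the 79 included PCNA, CDC6, GMNN, CCNA2, TUBB4B, SFN and PTN. AURKB (0.530 of pre-treatment) and CDK1 (0.574) were not among the 79.

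A second pair of libraries differed by palbociclib and shared no library with the first. JQ1+palbociclib (both drugs, 100 nM JQ1) was set against JQ1-B (JQ1 alone), both of the same experiment. Of 4514 genes, 39 (0.864%) were at least 2-fold higher with palbociclib added and 11 (0.244%) at least 2-fold lower, with an all-gene median of -0.01. The lists shared 11 higher genes, 16.2% of the 68 and 28.2% of the 39, namely FAM20C, HTRA1, SIK1, FSTL1, COL6A2, VCAN, TGFBI, EPAS1, FBXO32, FBLN1 and LAMA5. They shared 1 lower gene, CNN3, 0.714% of the 140 and 9.09% of the 11, and AQP3 was past 2-fold in opposite directions. Only 80 of the 140 lower and 47 of the 68 higher genes reached 20 CPM in the second pair, and 74 of those 80 and 44 of those 47 had the same sign there. Over all genes of the second pair, 49.3% had a ratio above 1. Matrix genes had a median log2 ratio of 0.53 in the second pair, where the all-gene median was -0.01, and 0.64 in the first, where it was -0.25. Mitochondrially encoded genes had 0.49 and 0.53. Replication and mitotic genes had -0.14 and -0.11 in the second pair, and -0.83 and -0.69 in the first. PCNA was at 56.0 CPM with both drugs and 54.5 CPM with JQ1 alone, and CDC6 at 23.6 and 22.1 CPM. Across 4251 genes the log2 ratios of the 2 pairs had a Spearman correlation of 0.561, given as a description, since genes of 1 library share its depth and composition and are not independent.

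Chromosome X stood apart by position. Of its 183 genes at 20 CPM or more, 17 (9.29%) were at least 2-fold lower under palbociclib, against 113 of 4320 autosomal genes (2.62%). The median log2 ratio was -0.39 on X and -0.24 on the autosomes. The X share was counted with CPM scaling only, and many of these genes lay close to the 2-fold line. With TMM scaling, the lower genes of the whole comparison were 71 in place of 140. Along the genome cut into windows of 10000000 bases, 177 windows held 10 or more such genes, and the lowest median was that of chromosome X from 10000001 to 20000000 (GRCh37), -0.96 over 15 genes. Of the 15, 5 were at least 2-fold lower: HCCS (34.0 and 75.1 CPM), PRPS2 (22.8 and 48.8 CPM), FANCB (11.2 and 23.6 CPM), PIR (38.4 and 77.5 CPM) and PDHA1 (64.2 and 132 CPM). Their log2 ratios ran from -1.15 (HCCS) to -1.01 (PIR), close to the 2-fold line. HCCS attaches haem to cytochrome c, PRPS2 makes a precursor of nucleotides, FANCB acts in DNA crosslink repair and PDHA1 is a subunit of pyruvate dehydrogenase. The median of the same window relative to DMSO was -0.06 in pre-treatment cells and -0.09 in paclitaxel. With JQ1 it was -1.11 in JQ1-A, -1.08 in JQ1+paclitaxel, -1.20 in JQ1-B and -1.32 in JQ1+palbociclib. Over all X genes the medians were -0.75 in JQ1-A and -1.01 in JQ1+paclitaxel, libraries without palbociclib. X also had the lowest chromosome median in pre-treatment (-0.10) and paclitaxel (-0.11), where chromosome 21 was next (-0.09 and -0.07). A low rank of X was thus not confined to libraries with palbociclib or JQ1. These ratios share the DMSO library and are given side by side only. Next to X, chromosomes 13 (-0.37) and 10 (-0.35) had the lowest medians and chromosome 5 (-0.12) the highest of the autosomes.

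**Figure D5:**
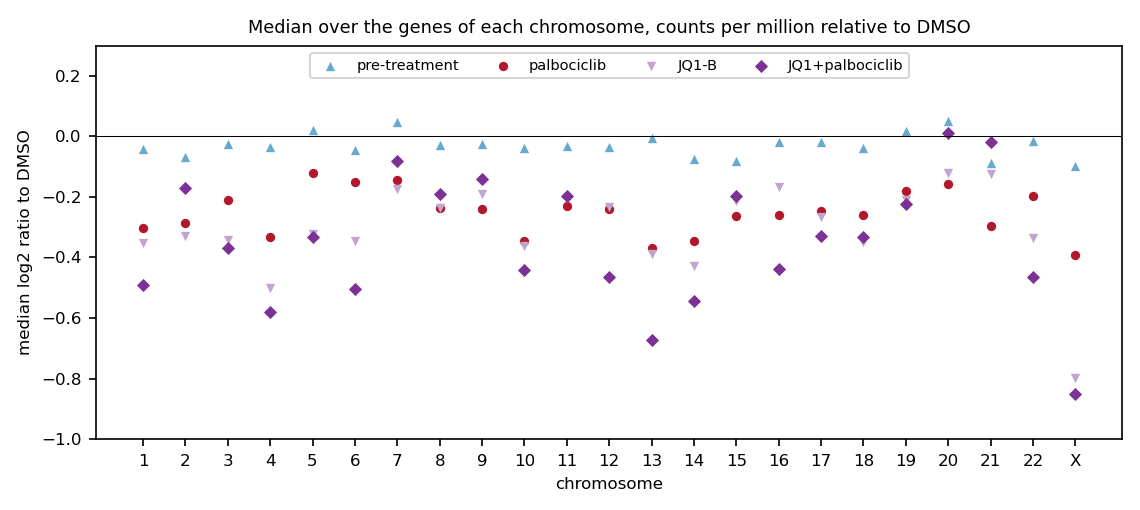
Median log2 ratio of CPM relative to DMSO (vertical) over the genes of each chromosome (horizontal) that reached 20 CPM in either the palbociclib or the DMSO library. Points are the palbociclib, pre-treatment, JQ1-B and JQ1+palbociclib libraries, 1 each, all over the same DMSO library. Chromosome X lies lowest in palbociclib (-0.39), JQ1-B (-0.80) and JQ1+palbociclib (-0.85), and by a small margin also in pre-treatment (-0.10, with chromosome 21 next at -0.09). JQ1-A and JQ1+paclitaxel are not drawn and had X medians of -0.75 and -1.01.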

How the data were processed

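Single-cell RNA was captured with the 10x Genomics Chromium 3' v2 kit. Per the labels and the methods, the authors aligned reads to hg19 with Cell Ranger and deposited UMI counts per gene and cell, raw and not normalized, with a second deposited file giving each cell's library (the cell annotation, unit other). The filter of the study (1 to 15% mitochondrial UMIs, at least 2000 genes) was not applied in the deposited table. 673 of 693 palbociclib-selected and 452 of 459 DMSO cells passed it.

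Counts were added up over every cell of a library (16553292 for palbociclib, 10621159 for DMSO) and scaled to CPM. Ratios carry exact conditional binomial (Clopper-Pearson) intervals. With 1 library a side no test was made. Phases came from CellCycleScoring in Seurat 5.3.0 over all 8 libraries, on cells passing the filter and thinned to 10000 UMIs (662 and 445 cells). No doublet caller was run. Leaving out cells above the 95th percentile of UMIs was an alternative, as were TMM (edgeR 4.0.16) and median-of-ratios (DESeq2 1.42.0) scaling. Named genes were the 12 largest and 12 smallest ratios, the 3 largest and smallest of each list, all members of the cyclin D axis and CDK inhibitor lists, and genes the study names. Other genes named were chosen after their values were seen. The gene lists and the comparison were chosen with earlier results of these data known. Of the 4888 genes, 4515 were placed on GRCh37 by symbol (GENCODE) and 3809 had a RefSeq promoter (GRCh38.p14 table, sequences matched to GRCh37). Some genes that these rules name are not reported here.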

Additional observations from a re-analysis of the deposited data

Results flagged for a closer look

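DCN was higher in the palbociclib library than in the DMSO library (ratio 4.40) and lower in the JQ1+palbociclib library than in JQ1-B (ratio 0.544), at 1.07 and 1.97 CPM there. The difference between the 2 pairs was not tested, with 1 library a side.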

How the results depend on the processing

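The counts of genes past 2-fold depended on scaling, level and phase. Higher and lower genes were 88 and 71 with TMM scaling, 77 and 91 with median-of-ratios scaling, and 169 and 84 with totals that left out mitochondrial and ribosomal protein genes. They were 260 and 229 at a minimum of 5 CPM, 18 and 73 at 50 CPM, and 1376 and 919 with no minimum. Against pre-treatment they were 117 and 177, and with equal phase weights 45 and 32. At least 2-fold below both references, an alternative chosen after seeing the data, were 79. The study's cell filter, the removal of cells above the 95th percentile of UMIs, thinning and the mean over cells kept both counts within 1.5 times of 68 and 140. The G1 share was 47.4% under palbociclib and 31.0% under DMSO when each library was scored alone, and 57.9% and 18.7% when the 2 were scored together. Over 151 named genes and 10 alternatives, 1047 of 1510 values stayed within their counting interval, but 109 of 151 moved further with pre-treatment as the reference and 69 with both references added, and no called gene changed direction. Over 22 lists, 260 of 286 medians stayed within the interval of the reported median. No paired analysis was possible because each group had 1 library. Counting intervals do not cover differences between cultures or experiments.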

Other observations

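Some of the largest gaps lay under 20 CPM, in genes singled out after their values were seen. S100A8, a subunit of the inflammatory protein calprotectin, had 83 UMIs in the palbociclib library and 0 in the DMSO library, which allows up to 0.282 CPM there. SESN3, a sestrin that restrains growth signalling, had 263 UMIs against 10, a ratio of 16.9 (9.03 to 35.6). It was at 15.9 CPM under palbociclib, 0.942 CPM under DMSO and 0.284 CPM before treatment. JQ1-B had 6.65 CPM and JQ1+palbociclib 32.6 CPM of it. No test between single libraries was possible.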
